A study of Mus musculus with 4 samples.

Results

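The 10 genes described here encode the heat shock protein 90 (HSP90) chaperones and proteins that work with them: the cytosolic chaperones Hsp90aa1 and Hsp90ab1, the mitochondrial paralogue Trap1, and the co-chaperones and partners Ahsa1, Stip1, Fkbp4, Cacybp, Chordc1, St13 and Cdc37. They were taken by gene symbol from a table of 19555 rows, and all 10 were among the 13715 rows that averaged at least 1 RPKM (read counts divided by exon length and library size). The samples were CD4+ T cells, sorted while naive from C57BL/6 mice (spleen plus lymph nodes) and cultured for 3 days with IL-6 and TGF-β1, the cytokine pair that induces T helper 17 (Th17) cells. The cells were wild type (WT) or came from animals labelled Smad4-deficient (KO-labelled below), and were kept at 37 °C or at the fever-range temperature of 39.5 °C. All 4 groups received the same cytokines, and each group was 1 library. Where 4 levels follow each other they are WT at 37 °C, WT at 39.5 °C, KO-labelled at 37 °C and KO-labelled at 39.5 °C. The sources used here do not say how the Smad4 knockout was made or whether cells of several animals were pooled.

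HSP90 is an abundant ATP-dependent chaperone that holds kinases, steroid receptors and other client proteins in a form that can be activated. Clients are passed to it from HSP70, and co-chaperones set the pace of its ATPase cycle and choose the client. In many cells the HSP90 genes are targets of the heat-activated factor HSF1, and HSP90α, the product of Hsp90aa1, is the form known to be inducible, while HSP90β, from Hsp90ab1, is made constitutively. In T cells HSP90 is known for keeping signalling kinases such as LCK stable.

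With 1 library in each group, no ratio between a pair of libraries can be checked against replicates, and the 95% intervals beside ratios are exact intervals on recovered whole reads that cover counting error only. The reads recovered per library ran from 18048961 to 18475245, and each of the 10 genes held at least 449 reads in every library. Smad4 itself was at 14.0, 14.2, 20.7 and 21.3 RPKM, so its level did not match the KO label, being higher where the label says knockout. One value per gene does not show whether some exons are missing, and every genotype direction below is that of the label. All 7 T cell markers (such as Cd3e and Cd4) and all 6 Th17 markers used (such as Il17a and Il23r) were at 1 RPKM or more in every library. Of 6 CD8 and NK cell markers 3 were in the table, summing to 4.73, 4.87, 5.69 and 4.17 RPKM. Most of this was Cd8b1, at 3.52, 3.91, 4.01 and 2.86 RPKM. Of 6 B cell markers 1 was in the table, with at most 0.485 RPKM. The 5 myeloid markers in the table summed to 2.77, 6.20, 4.26 and 8.505 RPKM. Among them the macrophage marker Cd68 was at 1.70, 4.57, 3.61 and 8.17 RPKM and rose with the KO label in the limma fit described below (adjusted p = 0.0275). Only Cd68 of the 5 averaged at least 1 RPKM and was in that fit. Lyz2 went the other way, with a ratio of RPKM, KO-labelled to WT, of 0.344 (95% interval 0.134 to 0.792) at 37 °C. At 39.5 °C this ratio was 0.0338 (0.00083 to 0.203), with 31 reads in WT and 1 in the KO-labelled library. Csf1r, Cd14 and Itgax had at most 12 reads in any library, with intervals for the label that held 1. The 7 T cell markers summed to 1397, 1193, 1984 and 1768 RPKM, of which Cd5 held 731, 488, 901 and 873 RPKM. In WT only Cd5 of the 7 was lower at 39.5 °C, where 53.5% of all rows were lower. With the KO label 0 of the 7 were lower at 37 °C, beside 51.1% of all rows. At 39.5 °C only Cd3e was lower, beside 49.7% of all rows. In the limma fit 2 of the 7, Cd3g and Cd2, rose with the label (adjusted p = 0.0479 and 0.0288). Of all rows 13.3% changed with the label in that fit, counting both directions, and 4.7% fell. The summed RPKM of the 6 Th17 markers was 689, 2087, 248 and 387. That of the 6 proliferation markers was 288, 326, 229 and 290. Mcm5 held 140, 124, 99.1 and 127 RPKM of it and Pcna 95.8, 103, 79.3 and 89.8 RPKM. In WT 5 of the 6 were higher at 39.5 °C (median log2 ratio 0.82), and only Mcm5 was lower. The ratios of Mki67, Top2a, Ccnb1 and Cdk1 in WT were 1.90, 1.88, 2.31 and 1.76. In the KO-labelled pair all 6 were higher (median 0.44), where 51.3% of all rows were lower. With the KO label 4 of the 6 were lower at 37 °C (median −0.10), beside 51.1% of all rows. At 39.5 °C 5 of the 6 were lower (median −0.29), beside 49.7% of all rows. The myeloid, T cell, Th17 and proliferation sums moved with the conditions compared here, and their part in the results below was not tested. The markers given with their own values or directions were chosen after these were seen. In bulk RNA, fewer cells of a type and less RNA per cell cannot be told apart.

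Heat shock elements, the sites bound by HSF1, are runs of inverted GAA units, so the promoters of these genes were searched for their letters. RefSeq promoters (GRCm38.p6, 250 bases before to 50 after the start) were at hand for 7 of the 10 genes, all but Hsp90aa1, Hsp90ab1 and St13. The 2-unit motifs were GAANNTTC and TTCNNGAA, and the 3-unit arrays were the first followed by NNGAA and the second followed by NNTTC. Each motif is its own reverse complement or that of its partner, so both strands were covered, and the arrays contain the shorter motifs. A 2-unit motif was found for 3 of the 7 genes, Chordc1, Fkbp4 and Cdc37, and in 15.1% of all 32851 promoters. A 3-unit array was found for 1 gene, Chordc1, and in 0.603% of all promoters. In Chordc1 the units ran on from position -4 to 19 around the start, and a further TTCNNGAA at 34 to 41 lies outside the stretch shown. These 3 stretches are shown because they hold the matches, with the motif in capitals; Chordc1 is on the plus strand at chr9:18292258-18292287, Fkbp4 on the minus strand at chr6:128438748-128438867 and Cdc37 on the minus strand at chr9:21150045-21150164.
Chordc1: aaccgGAACGTTCGGGAAAATTCCTGAAgc
Fkbp4: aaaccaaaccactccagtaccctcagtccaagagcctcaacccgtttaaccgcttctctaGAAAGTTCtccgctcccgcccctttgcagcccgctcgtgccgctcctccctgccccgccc
Cdc37: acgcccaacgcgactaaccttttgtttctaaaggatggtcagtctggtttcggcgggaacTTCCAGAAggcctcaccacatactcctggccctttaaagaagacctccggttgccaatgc
A match describes letters and is not evidence of binding, and a promoter without one lacks these letters in this window only.

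All 10 genes had their highest level in the WT library at 37 °C, a pattern found in 26.2% of the 13715 rows. The excess of that library over the mean of the other 3 had a median of 1.45-fold for the 10 genes and 0.997-fold for all rows. It was largest for Chordc1 (1.82-fold) and Cacybp (1.75-fold) and smallest for Cdc37 (1.14-fold) and Trap1 (1.17-fold). Since the WT library at 37 °C enters both the temperature comparison in WT and the genotype comparison at 37 °C, those comparisons share it and their results are not independent.

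**Figure D1:**
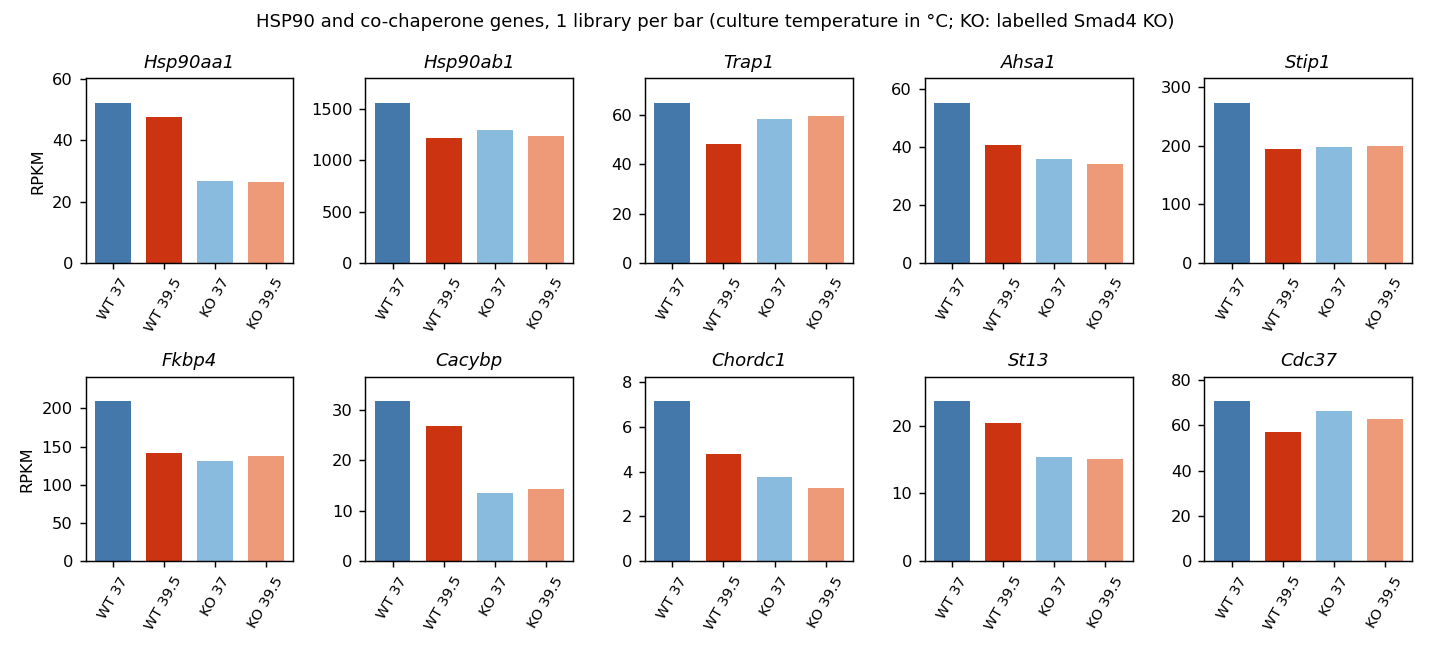
RPKM of each of the 10 genes (vertical axis, a separate scale from 0 in each panel) in the 4 libraries, 1 bar per library with no replicates, KO meaning labelled Smad4 KO. The WT library at 37 °C is highest in every panel, and for Cacybp, Hsp90aa1, St13, Chordc1, Ahsa1 and Fkbp4 both KO-labelled bars are below both WT bars.

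The chaperone genes were very unequal in level, with Hsp90ab1 the highest of the 10 genes. Hsp90ab1 (chromosome 17, 45567775 to 45573271, minus strand, GRCm38) was at 1559, 1216, 1294 and 1235 RPKM. Apart from WT at 37 °C, its levels lay within 6.38% of each other. Its mean of 1326 RPKM stood at percentile 99.7 of the rows kept, and it made up between 66.4% and 70.2% of the summed RPKM of the 10 genes. Hsp90aa1 (chromosome 12, 110690605 to 110702728, minus strand) was at 52.3, 47.4, 26.7 and 26.5 RPKM. Both WT libraries stood above both KO-labelled libraries for this gene. Hsp90ab1 was 29.8, 25.6, 48.4 and 46.6 times as abundant as Hsp90aa1 per length. These 2 genes are close paralogues, and reads in their shared stretches are uncertain by gene. Trap1 (chromosome 16, 4039971 to 4077827, minus strand), whose product folds proteins inside mitochondria, was at 65.1, 48.3, 58.4 and 59.8 RPKM. It was lowest in WT at 39.5 °C.

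Stip1 and Fkbp4 were the most abundant co-chaperone genes. Stip1 (chromosome 19, 7020702 to 7039967, minus strand) encodes HOP, the adaptor that links HSP70 to HSP90, and was at 274, 194, 198 and 200.4 RPKM. The 3 libraries other than WT at 37 °C differed by at most 3.41%. Fkbp4 (chromosome 6, 128429735 to 128438677, minus strand) encodes FKBP52, an immunophilin of steroid receptor complexes, and was at 209.7, 142, 132 and 137 RPKM. It showed the same shape, with those 3 libraries within 7.66% of each other. Ahsa1 (chromosome 12, 87266479 to 87273998, plus strand), the gene of the ATPase activator AHA1, was at 55.5, 40.8, 36.0 and 34.1 RPKM. Cdc37 (chromosome 9, 21133222 to 21149982, minus strand), whose product delivers kinases to HSP90, was at 70.8, 56.9, 66.5 and 62.6 RPKM. Ahsa1 was lower in both KO-labelled libraries than in either WT library, whereas Cdc37 was lowest in WT at 39.5 °C.

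The remaining genes were expressed at lower levels. Cacybp (chromosome 1, 160202367 to 160212875, minus strand), which encodes the calcyclin-binding protein, was at 31.8, 26.7, 13.5 and 14.3 RPKM. St13 (chromosome 15, 81363669 to 81400077, minus strand) encodes HIP, a partner of HSP70, and was at 23.6, 20.3, 15.3 and 15.05 RPKM. Chordc1 (chromosome 9, 18292125 to 18317442, plus strand), which encodes a CHORD-domain protein that binds HSP90, was at 7.15, 4.77, 3.77 and 3.25 RPKM. In all 3 genes both WT libraries stood above both KO-labelled libraries. By mean RPKM the genes ran from Hsp90ab1 through Stip1 (216), Fkbp4 (155), Cdc37 (64.2), Trap1 (57.9), Ahsa1 (41.6), Hsp90aa1 (38.2), Cacybp (21.6) and St13 (18.6) to Chordc1 (4.73). Both KO-labelled libraries were below both WT libraries for 6 of the 10 genes (Hsp90aa1, Ahsa1, Fkbp4, Cacybp, Chordc1 and St13), an order found in 30.1% of all rows. The neighbours Ahsa1 and Hsp90aa1 were not in the same order in every library, and neither were Cacybp and St13. The exon lengths behind these values ran from 2173 bases for Stip1 (recovered from the values, where GENCODE has 2108) to 10305 for St13, and a long annotated gene is given a low RPKM if its main transcript is short.

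The temperature comparison asks how fever-range heat altered these genes. In WT all 10 were lower at 39.5 °C, against 53.5% of all rows, and for all 10 the counting interval lay below 1, against 28.1% of all rows. Counting intervals narrow as reads rise, and all rows include some of few reads. This and the later shares of all rows by interval are therefore not matched for depth. The median log2 ratio of the 10 genes on the log2(RPKM + 1) scale was −0.39, and that of all rows −0.02. Chordc1 and Fkbp4 had the lowest ratios of RPKM, 0.668 (95% interval 0.605 to 0.737) and 0.676 (0.657 to 0.696). Stip1 followed with 0.708 (0.688 to 0.728), Ahsa1 with 0.736 (0.703 to 0.769) and Trap1 with 0.742 (0.703 to 0.783). Among the chaperones, Hsp90ab1 had 0.780 (0.772 to 0.788). The client adaptor Cdc37 had 0.803 (0.781 to 0.826). Nearest to 1 were Hsp90aa1 with 0.908 (0.867 to 0.951), St13 with 0.861 (0.825 to 0.899) and Cacybp with 0.840 (0.778 to 0.908). The inducible cytosolic form thus had the ratio nearest to 1 in WT, and 0 of the 10 were at least 1.5-fold lower, where 2.6% of all rows were.

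In the KO-labelled libraries the same genes lay near 1. Of the 10, 6 were lower and 4 higher at 39.5 °C, where 51.3% of all rows were lower, and their median log2 ratio was −0.02, with −0.01 for all rows. The counting interval lay below 1 for 4 genes (24.8% of all rows) and above 1 for 1 gene (22.7% of all rows). The 4 lower genes were Chordc1 at 0.864 (0.759 to 0.983), Cdc37 at 0.941 (0.914 to 0.968), Ahsa1 at 0.947 (0.898 to 0.998) and Hsp90ab1 at 0.954 (0.944 to 0.965). Fkbp4 was the higher one, at 1.04 (1.01 to 1.08). Hsp90aa1 stood at 0.992 (0.930 to 1.06), Trap1 at 1.02 (0.971 to 1.08), Stip1 at 1.01 (0.983 to 1.05), St13 at 0.983 (0.932 to 1.04) and Cacybp at 1.06 (0.946 to 1.19). Scaled to recovered reads instead, 4 of the 10 were lower and 6 higher in this pair, with a median of 0.04 beside 0.05 for all rows. Both lower in WT and higher in the KO-labelled pair were 4 of the 10 (Trap1, Stip1, Fkbp4 and Cacybp), as were 20.9% of all rows.

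**Figure D2:**
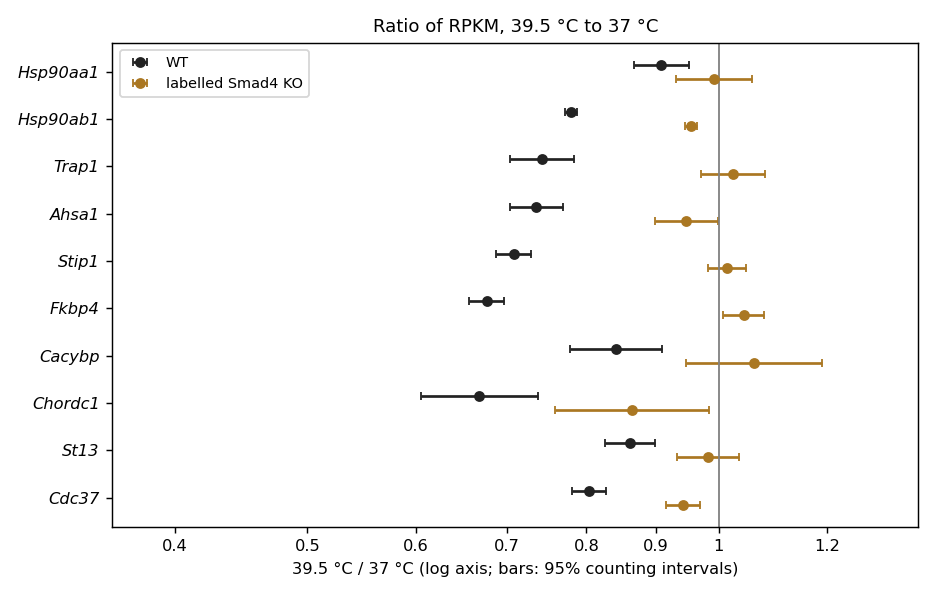
Ratio of RPKM at 39.5 °C to 37 °C (horizontal log axis) for each gene in WT (black) and in the KO-labelled libraries (brown), with 95% counting intervals as bars. All 10 WT points lie left of 1, from 0.668 to 0.908, and the other points lie between 0.864 and 1.06.

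For all 10 genes the ratio in the KO-labelled libraries was above that in WT, while 49.6% of all rows had that order. The interval of the ratio of ratios, from the counting error of all 4 libraries, was above 1 for all 10, against 21.9% of the 13693 rows with reads in every library. It was largest for Fkbp4 at 1.54 (1.47 to 1.61), Stip1 at 1.43 (1.37 to 1.495) and Trap1 at 1.38 (1.28 to 1.49), and smallest for Hsp90aa1 at 1.09 (1.01 to 1.18) and St13 at 1.14 (1.07 to 1.22). In log2(RPKM + 1) the median difference was 0.33 for the 10 genes and −0.0028 for all rows. There is no replicate to test this difference between genotypes.

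Changes with temperature common to both genotypes were sought with limma, in an additive fit of genotype label and temperature to all 13715 rows in the 4 libraries, with Benjamini-Hochberg adjustment. Of the 10 genes 0 passed an adjusted p of 0.05, and 0 had an unadjusted p under 0.05, where 0.0219% and 14% of all rows did. The estimate farthest from 0 was that of Chordc1 (log2 −0.33 ± 0.15 SE, adjusted p = 0.399), and that of Hsp90aa1 was the nearest (−0.07 ± 0.12, adjusted p = 0.838). The fit has 1 residual degree of freedom, the difference in response between genotypes, so unequal responses such as those above raise its error.

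The genotype comparison asks how the genes differed with the Smad4 label. At 37 °C all 10 were lower in the KO-labelled library, against 51.1% of all rows, and all 10 intervals lay below 1, against 32.1% of all rows. The median log2 ratio was −0.60, and −0.01 over all rows. On the log2(RPKM + 1) scale 6 genes were at least 1.5-fold lower (7.35% of all rows) and 1 was at least 2-fold lower (1.14% of all rows). That gene was Cacybp, with a ratio of RPKM of 0.426 (0.385 to 0.4696). Hsp90aa1 had 0.512 (0.484 to 0.541) and Chordc1 0.527 (0.472 to 0.588). The other 3 past 1.5-fold were Fkbp4 at 0.628 (0.609 to 0.648), St13 at 0.648 (0.618 to 0.6797) and Ahsa1 at 0.649 (0.619 to 0.681). Stip1 was at 0.722 (0.701 to 0.743), Hsp90ab1 at 0.830 (0.821 to 0.838), Trap1 at 0.897 (0.851 to 0.946) and Cdc37 at 0.939 (0.914 to 0.966).

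At 39.5 °C the genes parted. Of the 10, 6 were lower and 4 higher with the KO label, against 49.7% of all rows lower, and the median log2 ratio was −0.15, with 0.0027 for all rows. The interval was below 1 for 5 genes, as for 30.1% of all rows, and above 1 for 4, as for 31.5%. Cacybp at 0.537 (0.487 to 0.592), Hsp90aa1 at 0.559 (0.529 to 0.591), Chordc1 at 0.681 (0.604 to 0.769), St13 at 0.739 (0.705 to 0.776) and Ahsa1 at 0.836 (0.794 to 0.879) were on the low side. Cacybp and Hsp90aa1 were the 2 past 1.5-fold, as were 6.38% of all rows. Trap1 at 1.24 (1.17 to 1.31) and Cdc37 at 1.10 (1.07 to 1.13) were on the high side. Hsp90ab1 at 1.02 (1.00475 to 1.03) and Stip1 at 1.03 (1.0025 to 1.07) were slightly above 1. Both were below 1 with upper quartile scaling or scaling to recovered reads, which put 8 of the 10 genes on the low side. Under these scalings the median log2 ratio of all rows was itself lower, at −0.055 and −0.071. Fkbp4 was at 0.968 (0.938 to 1.0004). Lower at 37 °C and higher at 39.5 °C with the KO label were 4 of the 10 genes (Stip1, Trap1, Hsp90ab1 and Cdc37), where 13.1% of all rows were.

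**Figure D3:**
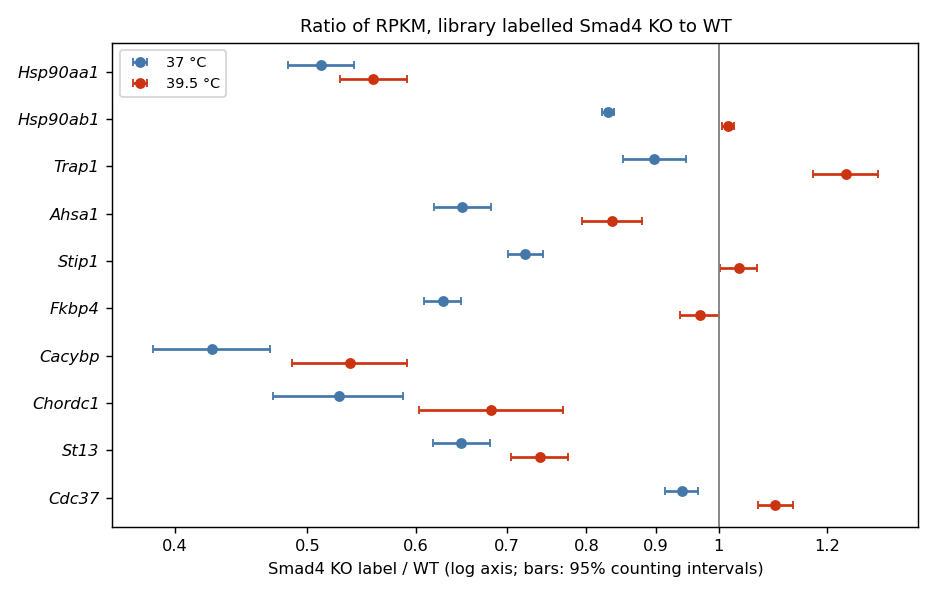
Ratio of RPKM in the KO-labelled library to WT (horizontal log axis) for each gene at 37 °C (blue) and at 39.5 °C (red), with 95% counting intervals as bars. Every blue point is left of 1, and the red points run from Cacybp at 0.537 to Trap1 at 1.24.

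In the same limma fit 2 of the 10 genes fell with the KO label at an adjusted p under 0.05, where 13.3% of all rows changed and 4.7% fell. At an unadjusted p under 0.05 there were 5 of the 10, and 34.6% of all rows. Hsp90aa1 fell by 0.88 on the log2 scale (± 0.12 SE, adjusted p = 0.0179) and Cacybp by 1.01 (± 0.14, adjusted p = 0.0175). Each call held under 7 of 8 alternatives, with adjusted p from 0.00213 to 0.0546 for Hsp90aa1 and from 0.00131 to 0.0567 for Cacybp, and was lost with no filter on low rows. Chordc1 (log2 −0.61 ± 0.15, adjusted p = 0.0531), St13 (−0.50 ± 0.13, adjusted p = 0.0585) and Ahsa1 (−0.43 ± 0.14, adjusted p = 0.0973) did not pass. Hsp90ab1 (−0.12 ± 0.11, adjusted p = 0.458), Trap1 (0.07 ± 0.15, adjusted p = 0.761) and Cdc37 (0.02 ± 0.13, adjusted p = 0.912) were near 0. Fkbp4 and Stip1 had adjusted p of 0.204 and 0.373. The p-values rest on the 1 residual degree of freedom, the difference in response between genotypes, with its error drawn toward that of all rows (4.47 prior degrees of freedom). They do not measure a spread between replicate cultures. No label ties a library to an animal or a day of culture, so differences between these libraries may be technical.

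**Figure D4:**
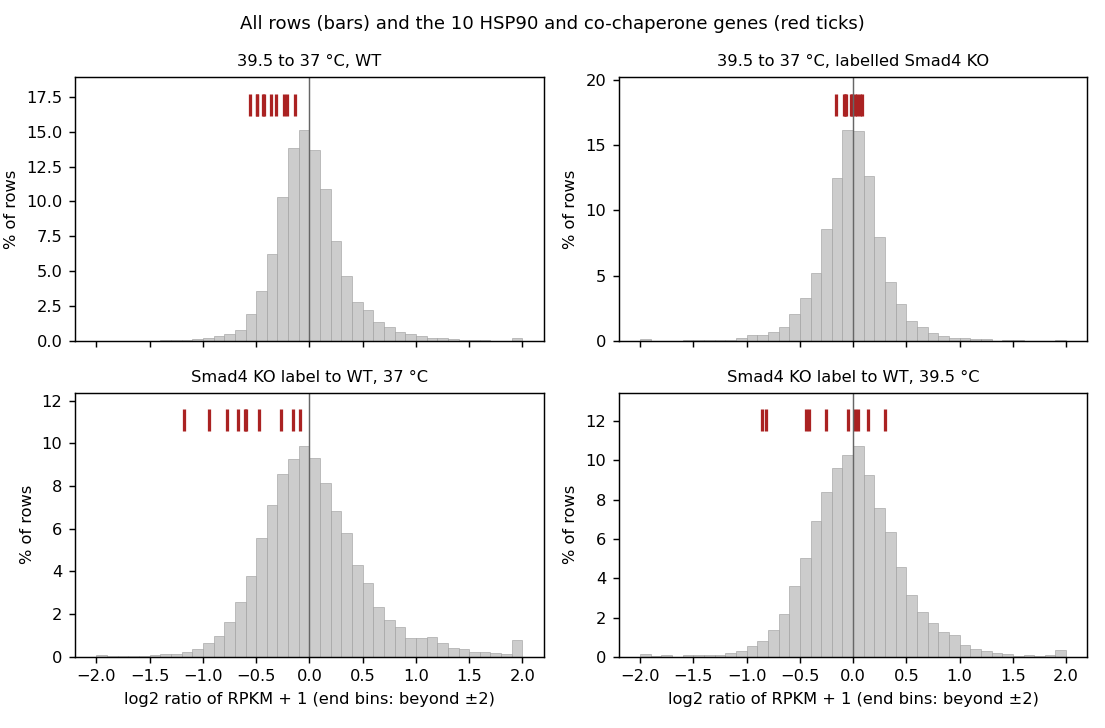
Share of the 13715 rows (grey bars, vertical axis in percent) by log2 ratio of RPKM + 1 (horizontal axis) in the 4 comparisons, with the 10 genes as red ticks placed above the bars. The ticks lie wholly below 0 for temperature in WT and for the genotype label at 37 °C, and on both sides of 0 in the other panels.

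Co-chaperone levels were also set against that of the chaperone. The summed RPKM of Hsp90aa1 and Hsp90ab1 was 1612, 1264, 1321 and 1261. Per 100 RPKM of that sum, Stip1 stood at 16.99, 15.3, 14.96 and 15.9 RPKM. Cdc37 stood at 4.39, 4.50, 5.03 and 4.96 RPKM, and Cacybp at 1.97, 2.11, 1.02 and 1.14 RPKM. Ahsa1 was at 3.44, 3.23, 2.73 and 2.70, and Chordc1 at 0.443, 0.378, 0.285 and 0.258 RPKM per 100. Fkbp4 was at 13.0, 11.2, 9.97 and 10.9 RPKM per 100, and St13 at 1.47, 1.61, 1.16 and 1.19. On this scale both KO-labelled libraries were below both WT libraries for 5 of the 7 co-chaperones (Cacybp, Ahsa1, Chordc1, Fkbp4 and St13) and above them for 1, Cdc37. No share of all rows was computed on this scale. The same 5 genes already had this order in RPKM, as did 30.1% of all rows. These differences were not tested.

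The rest of the HSP90 machinery, a list of 30 further co-chaperones and assembly factors with 29 among the rows kept, had a median nearer to 0 than the 10 genes in every comparison but temperature in the KO-labelled pair. In WT 20 of the 29 were lower at 39.5 °C (median log2 ratio −0.13), beside 53.5% of all rows. In the KO-labelled libraries 14 were lower (median 0.02), beside 51.3% of all rows. Of the 29, 0 passed the limma test for temperature, and 3 had an unadjusted p under 0.05, where 14% of all rows did. With the KO label the medians were −0.18 at 37 °C and −0.11 at 39.5 °C, and 2 of the 29 fell in the limma fit, where 4.7% of all rows did. Those were Ptges3, the gene of the co-chaperone p23, at 52.2, 47.9, 25.9 and 30.6 RPKM, and Ppid, the gene of the immunophilin cyclophilin 40, at 14.3, 15.03, 7.40 and 10.1 RPKM. Both were lower in each KO-labelled library than in either WT library, as were Hsp90aa1 and Cacybp and 30.1% of all rows. Each of these named genes passed the limma fit for the label, a call that itself favours this order. Hsp90b1, which encodes the HSP90 of the endoplasmic reticulum, was at 63.0, 48.8, 56.7 and 34.0 RPKM and did not pass for temperature (log2 −0.54 ± 0.14 SE, adjusted p = 0.206). Bag2, a regulator of HSP70, was at 11.04, 7.45, 8.36 and 6.75 RPKM, and Nudc, a CS-domain protein gene, at 162, 134, 90.8 and 109.8 RPKM.

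The heat shock factors Hsf1 and Hsf2 with HSF1 targets outside the 10 genes, a list of 14 with 12 among the rows kept, stood lower with the KO label in most members. The median log2 ratio was −0.54 at 37 °C, where all 12 were lower (51.1% of all rows), and −0.46 at 39.5 °C, where 9 were (49.7% of all rows). In the limma fit, where 4.7% of all rows fell, 4 of the 12 did: Hsph1, Hspa4, Dnaja1 and Hspd1 (Hspa4 is outside the rule for named genes and was chosen after its values were seen). Hspd1, the gene of the mitochondrial chaperonin HSP60, was at 103.9, 95.1, 53.5 and 60.7 RPKM. With temperature the medians were −0.12 in WT and 0.07 in the KO-labelled libraries, and 0 of the 12 passed, 4 having an unadjusted p under 0.05, beside 14% of all rows. Hspa8, the constitutive HSP70 that hands clients to HSP90, was at 795, 307, 466 and 245 RPKM. Its RPKM per RPKM of the cytosolic HSP90 sum was 0.493, 0.243, 0.353 and 0.194. Hsf1, the gene of the heat-activated factor, was at 14.4, 13.3, 12.01 and 15.3 RPKM. Of these 12 genes 8 were highest in WT at 37 °C, and of the 29 other HSP90 machinery genes 16 were, beside all 10 of the HSP90 and co-chaperone genes and 26.2% of all rows.

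**Figure D5:**
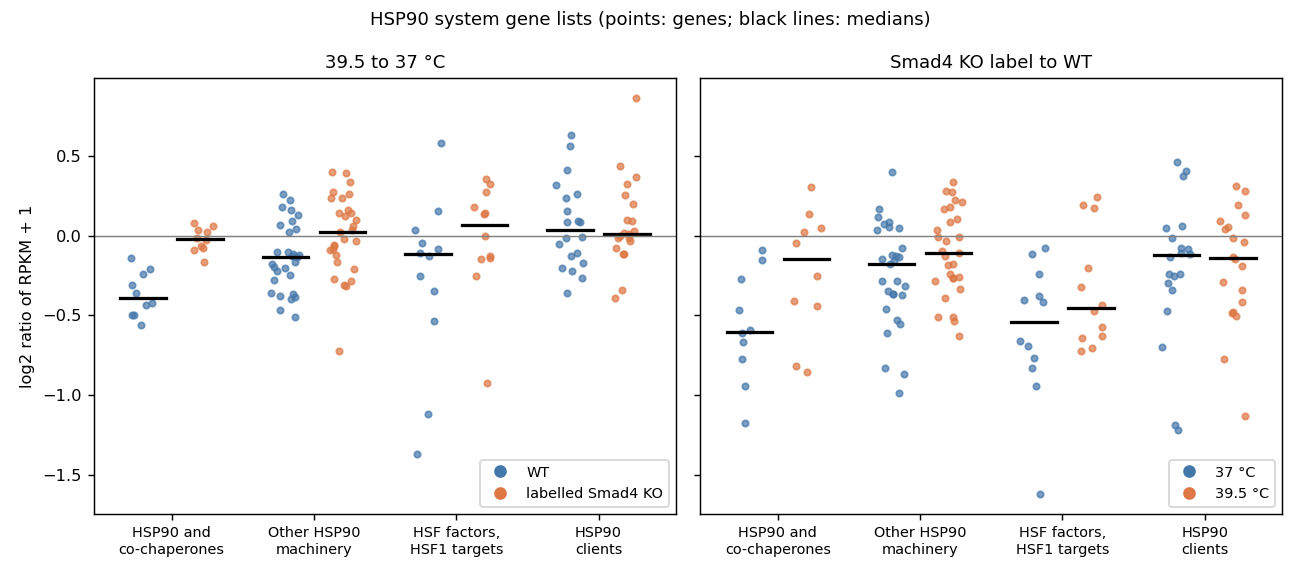
Log2 ratio of RPKM + 1 (vertical axis) of each gene (points, spread sideways at random) in 4 gene lists, for temperature (left panel) and for the genotype label (right panel), with list medians as black lines. The first list has medians of −0.39 in WT and −0.02 in the KO-labelled libraries for temperature, and of −0.60 at 37 °C and −0.15 at 39.5 °C for the genotype label.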

How the data were processed

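RNA-seq libraries of 4 cultures were grouped by the genotype and temperature in their titles, 1 per group. The authors deposited RPKM values, 1 table per library. Build mm10, edgeR, Subread, featureCounts, Bowtie2 and Trim Galore 0.4.4 are named, with no roles, per the submitters' processing notes. Settings, strandedness and the annotation release: not given in the sources used here. Whole reads were recovered by multiplying RPKM by exon length and library size. The length was that of GENCODE vM21 where this gave whole numbers within 0.01 reads, otherwise the smallest that did within 0.003. Of 19555 rows, 19554 gave reads, 12053 of them at the GENCODE length. A searched length may not be the true one, and the shares of all rows by interval rest partly on such rows. The library sizes behind the RPKM were 18216613, 19308700, 17639131 and 18410930 (WT at 37 °C, WT at 39.5 °C, KO-labelled at 37 °C, KO-labelled at 39.5 °C). They were 1.01, 1.06, 0.955 and 0.997 times the reads recovered, so they are not plain read totals. Scaling to recovered reads uses those totals instead. Of the 10 genes, 9 matched the GENCODE length.

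Ratios were computed on log2(RPKM + 1) for rows averaging at least 1 RPKM, with size rules of 2-fold and 1.5-fold; such values understate changes of low genes. Intervals are exact Clopper-Pearson intervals (95%) on recovered reads, and normal intervals on the log scale for ratios of ratios. Without molecular identifiers, PCR copies count as reads, so the intervals hold counting error only. limma 3.58.1 in R 4.3.3 used an additive model and empirical Bayes with a trend. Scripts were tested on simulated data. The members and lists were chosen with earlier results of these data known. All 10 genes were named, and from each further list up to 4 with the largest absolute mean log2 ratio for temperature and for the genotype label, of which the text gives some; Hsf1, Hspa8, Hsp90b1, Ptges3 and Smad4 were always given. Alternatives were the pseudocount, the filter, the scaling, the size rule and the limma settings. Of the Th17 markers listed, 1 is not reported here and is left out of the counts and sums.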

Additional observations from a re-analysis of the deposited data

Results flagged for a closer look

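For some genes a comparison went in opposite directions in the paired settings, and with 1 library per group the difference was not tested. The temperature log2 ratio was below 0 in WT and above 0 in the KO-labelled libraries for Fkbp4 (difference 0.62), Stip1 (0.52), Trap1 (0.46) and Cacybp (0.32), an order found in 20.9% of all rows. The genotype log2 ratio was below 0 at 37 °C and above 0 at 39.5 °C for Stip1 (0.52), Trap1 (0.46), Hsp90ab1 (0.29) and Cdc37 (0.22), an order found in 13.1% of all rows. The differences for Stip1 and Trap1 are the same quantity in both statements, since both are built from the same 4 libraries.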

How the results depend on the processing

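For the median of the 10 genes, the difference in temperature response between genotype labels kept its direction under all 5 alternatives of pseudocount, filter and scaling. Dropping the filter could not change this median, because all 10 genes already passed the filter. Scaled to recovered reads, the median log2 ratio of the 10 genes was −0.32 for temperature in WT, beside 0.035 for all rows. It was −0.68 for the genotype label at 37 °C and −0.23 at 39.5 °C, beside −0.081 and −0.071 for all rows. With a minimum mean of 5 RPKM, which leaves out Chordc1, the median for the label at 39.5 °C was −0.0459, beside 0.041 for all rows. The temperature median in the KO-labelled pair, −0.02, was 0.04 with scaling to recovered reads. At 39.5 °C the genotype log2 ratio of Hsp90ab1 turned to −0.0454 and that of Stip1 to −0.0191 with upper quartile scaling, beside a median of −0.055 for all rows. With scaling to recovered reads they were −0.0640 and −0.0376, beside −0.071 for all rows. Rows at least 2-fold changed for temperature in WT, temperature in Smad4 KO, the label at 37 °C and the label at 39.5 °C numbered 272, 228, 801 and 459. They were 556, 458, 1220 and 866 with a pseudocount of 0.1 RPKM, 144, 104, 512 and 273 with a minimum mean of 5 RPKM, and 1087, 976, 2584 and 2118 at 1.5-fold. For the label at 39.5 °C the split was 315 higher and 144 lower, against 253 and 191 when scaled to recovered reads. The limma count for temperature, 3, was 30 with a pseudocount of 0.1, 290 with a minimum mean of 5 RPKM, 0 with no filter, 9 with scaling to recovered reads, 0 without a trend, 9 with robust fitting and 366 with limma-voom on recovered reads; the cause was not tested. That for the genotype label, 1820, was 0 with no filter and 3102 with limma-voom. Chordc1 and St13 passed for the genotype label under 4 alternatives each, and Ahsa1 under 1. The count test planned for recovered reads was not run, because the deposited unit is RPKM. No paired analysis was possible because each group has 1 library. Leaving out a library leaves no residual in the additive fit.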

Other observations

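Genes of T cell proteins known as HSP90 clients were described beside the chaperones. Of 20 such genes, 6 were highest in WT at 37 °C, as were 26.2% of all rows, and 10 were lower at 39.5 °C in WT, as were 53.5% of all rows, with a median log2 ratio of 0.04. In the KO-labelled libraries the temperature median was 0.01. With the KO label the medians were −0.12 at 37 °C and −0.14 at 39.5 °C, and 3 of the 20 fell in the limma fit, where 4.7% of all rows did. These were Zap70, a kinase of T cell receptor signalling, at 251, 279.7, 109.6 and 200.1 RPKM (in the order WT at 37 °C, WT at 39.5 °C, KO-labelled at 37 °C, KO-labelled at 39.5 °C), Map3k7, the gene of the kinase TAK1, at 9.32, 14.2, 6.43 and 7.88 RPKM, and Tgfbr1, the type I TGF-β receptor gene, at 3.21, 5.52, 1.60 and 1.98 RPKM. The aryl hydrocarbon receptor gene Ahr was at 29.7, 22.9, 12.2 and 16.9 RPKM and did not pass. For temperature 0 of the 20 passed, and 5 had an unadjusted p under 0.05, where 14% of all rows did.

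Likeness of pattern was measured as the Euclidean distance between centred log2(RPKM + 1) values over the 4 libraries, among 6418 other rows averaging at least 10 RPKM. The 5 rows nearest to Hsp90ab1 included Farsa (33.0, 25.9, 27.8 and 26.5 RPKM), Prep (23.2, 18.4, 19.2 and 18.2 RPKM) and Polr3a (12.4, 9.71, 10.2 and 9.57 RPKM). The 5 nearest to Hsp90aa1 included Gnl3 (16.5, 15.6, 8.17 and 7.91 RPKM), and the remaining rows of both lists carry clone identifiers. Among the co-chaperones Cacybp ranked 25 by likeness to Hsp90aa1, St13 203, Ahsa1 475, Fkbp4 894, Stip1 1532 and Cdc37 2887. By likeness to Hsp90ab1, Stip1 ranked 217, Cdc37 245, Fkbp4 1512, Ahsa1 1806, St13 2865 and Cacybp 5760. Chordc1 averaged below 10 RPKM and was not ranked. Hsp90ab1 stood at rank 1870 by likeness to Hsp90aa1, and Hsp90aa1 at rank 5478 by likeness to Hsp90ab1.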
